A study of Arabidopsis thaliana with 9 samples.

Results

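The PRA1.F genes of Arabidopsis thaliana are one subfamily of the prenylated RAB acceptor 1 (PRA1) genes, with members PRA1.F1 (AT1G17700), PRA1.F2 (AT1G55190), PRA1.F3 (AT3G13720) and PRA1.F4 (AT3G13710). They were taken by locus code, and 3 of the 4 had a row among the 20777 loci of the deposited value table; PRA1.F4 had none and was not analysed here. The set was chosen by the low signal of PRA1.F1 in both mutants, and the other members by family name. The differences of PRA1.F1 from the wild type are therefore a description, with no test, and the question tested is whether its relatives changed as well.

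Affymetrix ATH1 arrays were hybridised with RNA of the vegetative part of Col-0 seedlings at growth stage 1.04. The 9 arrays are 3 biological repeats each of the scarecrow mutant scr-3, the short-root mutant shr-5 and the wild type (WT), all grown on MS medium with 16 h of light and 8 h of dark at 22 °C. Each mutant is represented by 1 allele. SCARECROW (SCR) and SHORT-ROOT (SHR) are GRAS transcription factors that pattern the layers between epidermis and stele in roots, and the series title places the study in leaf growth and S phase of the cell cycle.

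RAB GTPases are small switches that mark membranes and vesicles; they sit in the membrane through prenyl groups and are drawn off it by GDI proteins. PRA1 proteins are small membrane proteins that bind prenylated RABs, and the yeast and mammalian relatives can release a RAB from GDI so that it enters a membrane. In plants the family is large and its proteins lie in the endoplasmic reticulum, the Golgi apparatus and endosomes, where PRA1.B6 and PRA1.F4 have been studied for their effects on the transport of proteins through the secretory pathway.

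The SHR transcript averaged 4.77 ± 0.10 on the shr-5 arrays and 6.66 ± 0.13 on the WT arrays (log2 signal, SD, n = 3 each). The SCR transcript averaged 7.40 ± 0.25 on the scr-3 arrays, 7.46 ± 0.13 on the shr-5 arrays and 7.97 ± 0.03 on the WT arrays, so it does not separate scr-3 from shr-5. Across loci, shr-5 replicate 3 correlated with the other arrays at r = 0.970 to 0.979, and the other 8 with each other at r = 0.983 to 0.997. Of 7 leaf markers only RCA, which encodes Rubisco activase, was in the table, with a mean signal of 13.77 over all arrays. Of 7 root markers measured, 0 differed in any of the 3 comparisons at an adjusted p under 0.05 (limma). At an unadjusted p under 0.05, 1 was lower in each mutant against WT, or 14.3%. Of all loci 5.71% were lower by that rule in scr-3 and 12.2% in shr-5. Nothing is read from marker counts so small. Over all loci 76 (0.366%) were called in scr-3 against WT, 1691 (8.14%) in shr-5 against WT and 279 (1.34%) in shr-5 against scr-3. These counts ranged from 17 (without scr-3 replicate 3) to 595, from 654 (without WT replicate 2) to 2643 and from 33 (without scr-3 replicate 2) to 610 when 1 array was left out, each highest without shr-5 replicate 3.

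PRA1.F1 was low on every mutant array. Its log2 signal was 4.63, 5.01 and 4.65 on the scr-3 arrays, 4.02, 4.35 and 4.42 on the shr-5 arrays, and 6.67, 6.79 and 7.10 on the WT arrays. Every mutant array lay below every WT array, by at least 1.66 log2 units, and the shr-5 arrays lay below the scr-3 arrays. The order of the levels was therefore shr-5, scr-3, WT. All mutant arrays lay below all WT arrays at 5.08% of the 20777 loci, and nothing is read from that share, because PRA1.F1 was chosen for this pattern.

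**Figure D1:**
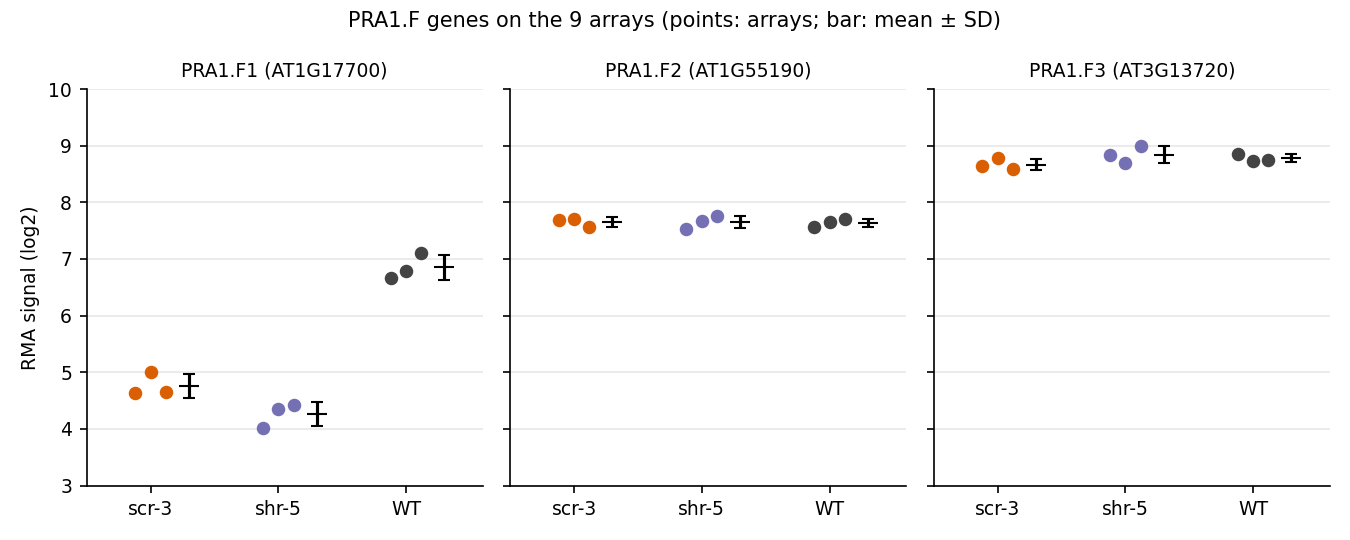
Log2 RMA signal of PRA1.F1, PRA1.F2 and PRA1.F3 on each array (points, replicates 1 to 3 from left to right) of scr-3, shr-5 and WT, with the mean ± SD of 3 arrays beside them. PRA1.F1 lies between 4.02 and 5.01 on the 6 mutant arrays and between 6.67 and 7.10 on the WT arrays, while the points of PRA1.F2 and of PRA1.F3 overlap between the genotypes.

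The mean of PRA1.F1 was 4.77 ± 0.21 in scr-3 and 6.85 ± 0.22 in WT (SD, n = 3 each), a difference of -2.09 (SE 0.15), or a level 4.25-fold lower in scr-3. In shr-5 the mean was 4.26 ± 0.21 (SD, n = 3), a difference from WT of -2.59 (SE 0.15), or a level 6.02-fold lower. Ranked over all loci by the size of the fall, these were the 2nd lowest difference in scr-3 and the 6th lowest in shr-5. The signal of PRA1.F1 was above that of 29.5% of loci in scr-3, 21.4% in shr-5 and 54.4% in WT, so the mutant levels lie in the dim part of the table. In RNA of whole tissue, fewer cells that express a gene and less transcript per cell cannot be told apart.

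Between the mutants PRA1.F1 differed by -0.50 (SE 0.15, 95% interval -0.85 to -0.15) in shr-5 against scr-3. The gene was chosen for its low signal on these same mutant arrays, so no conclusion is drawn from this comparison. The difference did not pass over all loci (limma, unadjusted p = 0.00977, adjusted p = 0.150), where 1.34% of loci were called. The 3 shr-5 arrays lay below the 3 scr-3 arrays without overlap, which was so at 10.8% of loci. When 1 array was left out the difference stayed between -0.58 and -0.38, with an adjusted p of 0.0923 to 0.371.

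PRA1.F2 had nearly the same signal in the 3 genotypes. It was 7.69, 7.71 and 7.56 on the scr-3 arrays, 7.53, 7.68 and 7.75 on the shr-5 arrays, and 7.57, 7.66 and 7.70 on the WT arrays. The arrays of the genotypes overlapped, and all 9 lay within 0.222 log2 units. PRA1.F2 differed by 0.01 (SE 0.08, 95% interval -0.18 to 0.20) in scr-3 against WT, with a limma adjusted p of 0.983. In shr-5 against WT the difference was also 0.01 (SE 0.08, 95% interval -0.18 to 0.20, limma adjusted p = 0.961). On the linear scale both intervals allow a level between 0.883 and 1.15 times that of WT. Between the mutants the difference was 0.00 (SE 0.08, limma adjusted p = 0.998). Only 8.72% of loci had a smaller SD over the 9 arrays than PRA1.F2.

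PRA1.F3 had the highest signal on its own probes of the 3, though signals of different probes do not order transcript amounts. Its values were 8.64, 8.78 and 8.58 on the scr-3 arrays, 8.83, 8.69 and 9.0 on the shr-5 arrays, and 8.86, 8.72 and 8.75 on the WT arrays. The genotypes overlapped in both comparisons with WT, and shr-5 replicate 3 held the highest value. The difference from WT was -0.11 (SE 0.10, 95% interval -0.33 to 0.11, limma adjusted p = 0.758) in scr-3. In shr-5 it was 0.07 (SE 0.10, 95% interval -0.15 to 0.28, limma adjusted p = 0.728), and -0.01 without shr-5 replicate 3. Between the mutants PRA1.F3 differed by 0.18 (SE 0.10, limma adjusted p = 0.40). PRA1.F3 and PRA1.F4 lie on chromosome 3 with AT3G13700 between them in gene order; whether the probes of PRA1.F3 also match PRA1.F4 is not stated in the labels or the table.

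Neither of the measured relatives passed the test in scr-3 against WT, where 0.366% of all loci were called, nor in shr-5 against WT, where 8.14% were. The lowest change that the intervals allow was -0.33 in scr-3 and -0.18 in shr-5, against -2.09 and -2.59 measured for PRA1.F1. The difference of PRA1.F1 and a relative on the same array is not altered by a shift of the whole array. Measured so, PRA1.F1 moved by -2.10 relative to PRA1.F2 and by -1.98 relative to PRA1.F3 in scr-3 against WT. For shr-5 the values were -2.60 relative to PRA1.F2 and -2.66 relative to PRA1.F3. These within-array values include the signal that PRA1.F1 was chosen for and carry no test.

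The other measured PRA1 genes differed far less from WT than PRA1.F1 did. PRA1.F1 was chosen for its low signal in both mutants, so a smaller difference in other genes follows largely from that choice. Of 15 further PRA1 genes 9 were measured (PRA1.A1, B1, B4, B6, D, E, G1, G2 and H), and 0 of them passed over all loci in any of the 3 comparisons with limma. Over all loci 0.366% were called in scr-3 against WT, 8.14% in shr-5 against WT and 1.34% in shr-5 against scr-3. A count of 0 in 9 genes is near these shares, so nothing is read from it. At an unadjusted p under 0.05 there were 0 of the 9 in scr-3 against WT, beside 5.28% of all loci higher and 5.71% lower, and 0 in shr-5 against WT, beside 12.4% higher and 12.2% lower. In shr-5 against scr-3, where 8.45% of loci were higher and 8.24% lower, it was only PRA1.G2, at -0.25 (limma adjusted p = 0.227). In scr-3 against WT the 9 differences ran from -0.15 for PRA1.D to 0.12 for PRA1.G1, with a median of -0.04 beside 0.00 over all loci. For shr-5 the 9 ran from -0.18 for PRA1.H to 0.10 for PRA1.E, with a median of 0.03 beside -0.01 over all loci. Between the mutants the lowest was PRA1.G2 and the highest PRA1.B4 at 0.13, with a median of 0.06. PRA1.B6, which acts on the exit of proteins from the endoplasmic reticulum in Arabidopsis, had signals of 6.73, 7.13 and 7.02 on the scr-3 arrays, 6.85, 6.92 and 7.41 on the shr-5 arrays, and 6.90, 6.95 and 7.15 on the WT arrays. Its genotypes overlapped, and its intervals were the widest of the 9.

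**Figure D2:**
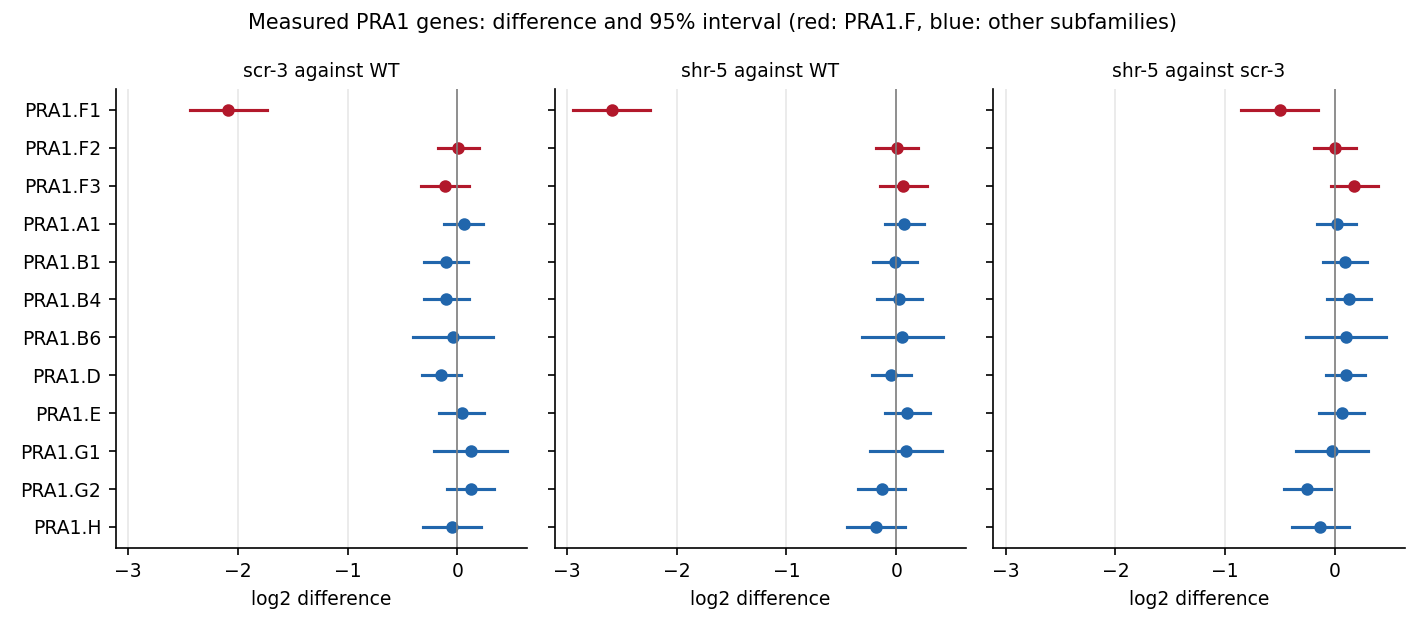
Log2 difference of each measured PRA1 gene in scr-3 against WT, shr-5 against WT and shr-5 against scr-3 (points, with the 95% interval of the limma fit over 9 arrays; PRA1.F genes in red, other subfamilies in blue). PRA1.F1 lies at -2.09, -2.59 and -0.50, and every other point lies between -0.25 and 0.18.

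The RAB GTPases are the proteins that PRA1 binds. The calls among their genes were too few beside the shares over all loci for anything to be read from their number. In scr-3 against WT 0.366% of all loci were called. Of 55 measured RAB genes 0 were called in that comparison (limma), and 1 was called lower without shr-5 replicate 3. With an unadjusted p under 0.05, 1 was higher and 3 were lower, or 1.82% and 5.45% beside 5.28% and 5.71% of all loci, and their median difference was 0.00. Against WT, 1 RAB gene was called higher and 1 lower in shr-5, or 3.64% beside 8.14% of all loci (4.35% higher and 3.79% lower). With an unadjusted p under 0.05, 12 were higher and 2 lower, or 21.8% and 3.64% beside 12.4% and 12.2% of all loci. With the arrays shifted to a common median these counts were 9 and 6, beside 1769 and 3840 of the 20777 loci. RABA4c, of the RAB-A clade that serves transport from the trans-Golgi network, had signals of 4.67, 4.77 and 4.96 on the shr-5 arrays, against 4.38, 4.17 and 4.09 on the WT arrays. The groups did not overlap, as at 14.3% of all loci in that direction, and RABA4c rose by 0.58 (SE 0.15, limma adjusted p = 0.0421). RABG3c, of the clade of RAB7-type GTPases of the vacuole, had signals of 8.82, 8.85 and 8.67 on the shr-5 arrays, against 9.11, 9.03 and 9.15 on the WT arrays. The arrays did not overlap, as at 15.1% of loci in that direction, and RABG3c fell by 0.32 (SE 0.08, limma adjusted p = 0.0463). Neither call was firm: RABA4c lost it without WT replicate 1, 2 or 3, scr-3 replicate 2 or 3 or shr-5 replicate 2 or 3, and RABG3c without any 1 of the 9 arrays (adjusted p up to 0.141 and 0.148 over all alternatives tried).

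Over the RAB list as a whole, 38 of 55 differences lay above 0 in shr-5 against WT, or 69.1% beside 47.5% of all loci, with a median of 0.13 beside -0.01. With the arrays shifted to a common median 31 of 55 lay above 0, or 56.4% beside 35.5% of all loci. Without shr-5 replicate 3 it was 32 of 55, beside 45.9% of all loci, with a median of 0.07 beside -0.02. Between the mutants 42 of 55 lay above 0, or 76.4% beside 47.5% of all loci, with a median of 0.15 beside -0.01. Without shr-5 replicate 3 it was 39 of 55, beside 47.1% of all loci, with a median of 0.09 beside -0.01. With all arrays 0 were called with limma, beside 1.34% of all loci. With an unadjusted p under 0.05, 6 were higher and 1 lower, or 10.9% and 1.82% beside 8.45% and 8.24% of all loci. A common median turned this balance, to 1 higher and 4 lower, beside 1227 and 2501 of the 20777 loci. With that shift 39 of 55 differences lay above 0, or 70.9% beside 37.5% of all loci, with a median of 0.11 beside -0.05. Another 13 genes extract, prenylate or activate RABs, such as the GDI genes and the subunits of the RAB geranylgeranyl transferase. With limma 0 of them passed in any comparison. The shares over all loci were 0.366% in scr-3 against WT, 8.14% in shr-5 against WT and 1.34% in shr-5 against scr-3. With an unadjusted p under 0.05 there were 0 of the 13 in scr-3 against WT, beside 5.28% of all loci higher and 5.71% lower. In shr-5 against WT 3 were higher, or 23.1% beside 12.4% of all loci, and in shr-5 against scr-3 it was 1, or 7.69% beside 8.45%. Their median difference was 0.08 in scr-3 against WT, beside 0.00 over all loci, and 0.06 in shr-5 against WT, beside -0.01. With the arrays shifted to a common median it was 0.00 in shr-5 against WT, beside -0.07 over all loci.

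**Figure D3:**
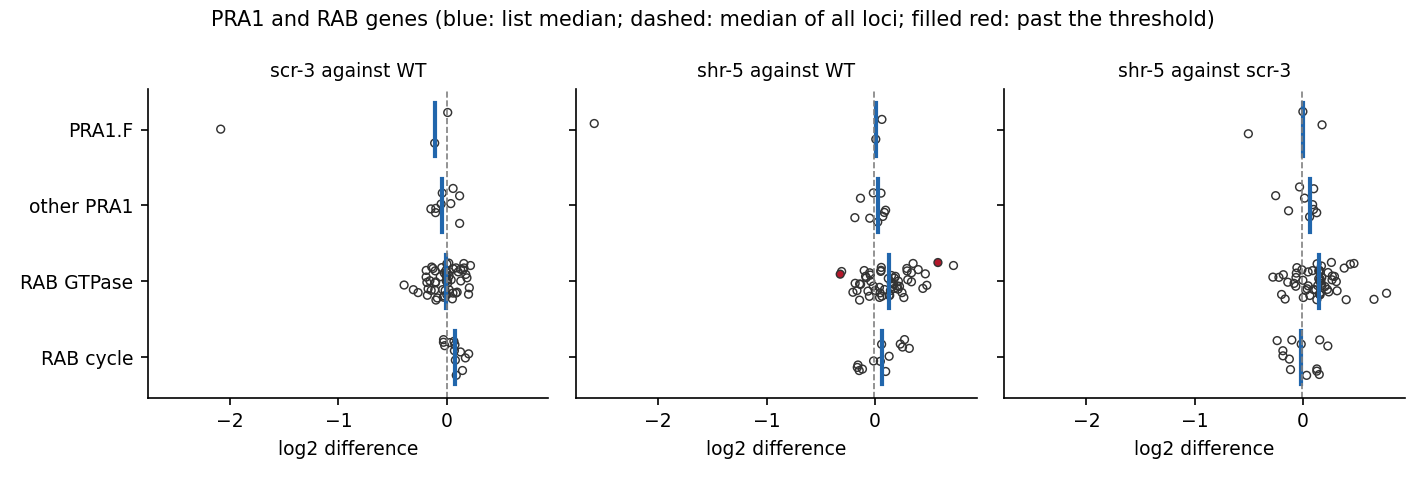
Log2 differences of the measured PRA1.F genes (3), other PRA1 genes (9), RAB GTPase genes (55) and RAB cycle genes (13) in the 3 comparisons, 1 circle per gene, with each list's median (blue) and the median of all loci (dashed). Circles filled red passed the limma threshold, RABA4c and RABG3c in shr-5 against WT; the differences of PRA1.F1 from WT were not tested and have empty circles.

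The loci whose signal followed PRA1.F1 most closely were ranked by Pearson's r over the 9 arrays, among 912 loci with an SD of at least 0.5. The 9 points are 3 arrays in each of 3 genotypes, so r includes the differences between genotypes and is given as a description. The 5 most alike were AT1G33340 (r = 0.990), MSRB6 (AT4G04840, r = 0.989), AT1G12010 (r = 0.984), AT4G16447 (r = 0.978) and AT4G11290 (r = 0.956). MSRB6, a methionine sulfoxide reductase gene, had signals of 8.27, 8.39 and 8.52 on the scr-3 arrays, 8.13, 8.18 and 8.18 on the shr-5 arrays, and 9.47, 9.61 and 9.71 on the WT arrays. As with PRA1.F1, all 6 mutant arrays lay below all WT arrays and shr-5 lay below scr-3. The ranking picks loci that move with PRA1.F1, so the likeness is no separate result. Not all 5 had shr-5 below scr-3: AT4G11290 averaged 4.11 in shr-5 and 4.07 in scr-3, and in AT1G12010 the mutant arrays overlapped. Of these 5, AT4G16447 had the SD nearest to that of PRA1.F1, with means of 4.73 in scr-3, 4.0 in shr-5 and 6.40 in WT.

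The 5 loci at the opposite end of the ranking were all NF-YA genes, which encode a subunit of the CCAAT-binding factor NF-Y. They were NF-YA6 (r = -0.988), NF-YA5 (r = -0.984), NF-YA8 (r = -0.980), NF-YA2 (r = -0.978) and NF-YA3 (r = -0.977). NF-YA6 (AT3G14020) had signals of 6.95, 6.70 and 6.73 on the scr-3 arrays, 7.30, 7.34 and 7.15 on the shr-5 arrays, and 5.73, 5.55 and 5.52 on the WT arrays. NF-YA8 (AT1G17590) had means of 6.06 ± 0.06 in scr-3, 6.40 ± 0.04 in shr-5 and 5.21 ± 0.07 in WT (SD, n = 3 each). In both genes the order of the levels is the reverse of that of PRA1.F1, with no overlap between the genotypes. The share of all loci with that pattern was not counted. In NF-YA2 and NF-YA5 the scr-3 and shr-5 arrays overlapped, with shr-5 replicate 3 of NF-YA2 (8.60) below every scr-3 array. This end of the ranking picks levels that run against those of PRA1.F1, whether or not the mutants overlap. The whole NF-YA family was looked up after this was seen: of 10 measured genes 7 were in the ranking, NF-YA10 and NF-YA7 held the 64th and 187th lowest r of the 912, and NF-YA4 (r = -0.204) and NF-YA1 (r = -0.120) had an SD under 0.5, as did NF-YA9 (r = -0.949).

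**Figure D4:**
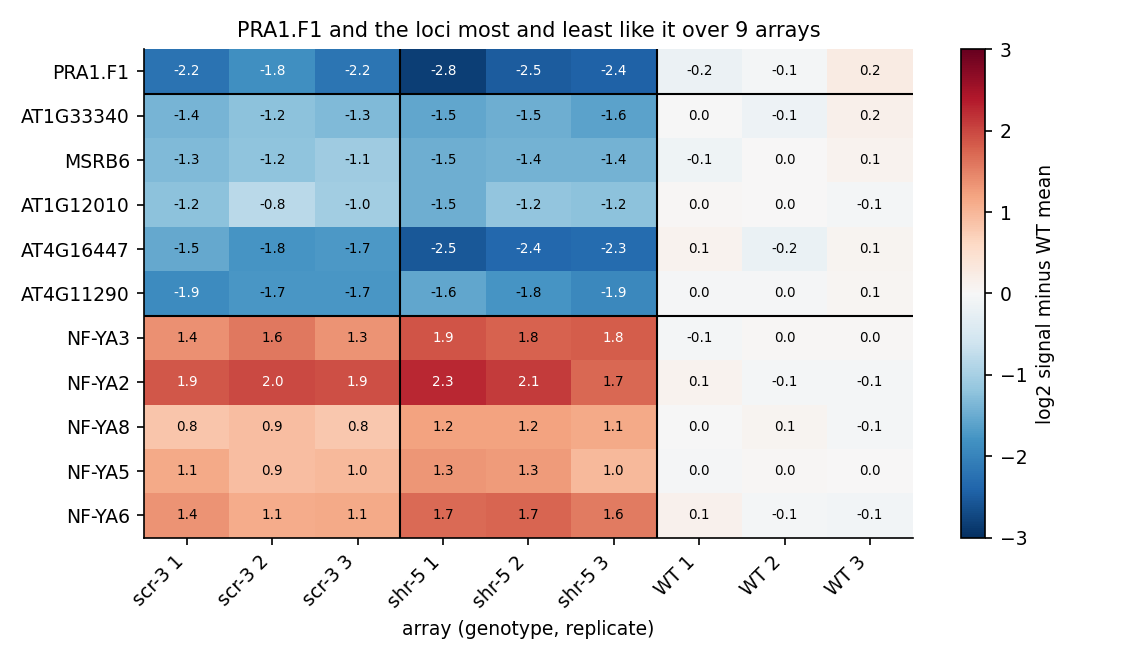
Log2 signal minus the WT mean of the same locus on each of the 9 arrays, for PRA1.F1 (top row), the 5 loci with the highest r with it and the 5 with the lowest. The 6 mutant columns are below the WT mean in the upper 6 rows and above it in the 5 NF-YA rows, with NF-YA8 at means of 6.06 in scr-3 and 6.40 in shr-5 against 5.21 in WT.

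Genes next to PRA1.F1 on chromosome 1 did not share its low level. Of the 10 measured loci on either side of it, 0 of 20 were called in scr-3 against WT, where 0.366% of all loci were called. Their median difference was -0.01 and the lowest was -0.10. In shr-5 against WT 0 of 20 were called lower and 1 higher, beside 3.79% and 4.35% of all loci, with a median of 0.03 and a lowest difference of -0.26. The higher one was PGDH (AT1G17745), a phosphoglycerate dehydrogenase gene of serine synthesis that stands 4 measured loci away, at 2.17 (limma adjusted p = 0.00425); in scr-3 its value was 1.51 (limma adjusted p = 0.0806). The nearest loci were NOF1 at -0.05 in scr-3 and -0.26 in shr-5, and PEPC1, a phosphatase gene, at 0.08 in scr-3 and 0.69 in shr-5 (none past the threshold). NF-YA8 lies 11 measured loci from PRA1.F1, just outside this window.

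**Figure D5:**
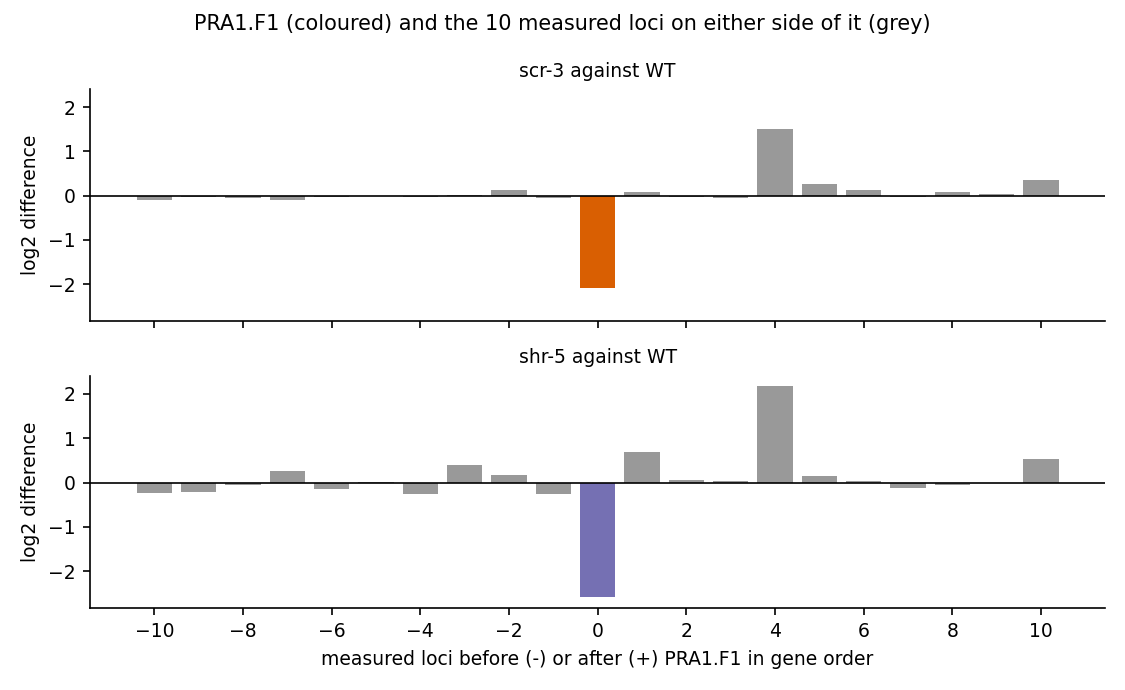
Log2 difference of PRA1.F1 (coloured bar at 0) and of the 10 measured loci on either side of it in gene order (grey bars), in scr-3 against WT (upper panel) and shr-5 against WT (lower panel). The lowest grey bar is at -0.26, while PRA1.F1 is at -2.09 and -2.59, and the tall grey bar is PGDH at 1.51 and 2.17.

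In scr-3 against WT, where 0.366% of all loci were called, 0 of 20 neighbours each were called around PRA1.F2 (chromosome 1) and PRA1.F3 (chromosome 3). Against WT, 1 of 20 neighbours of PRA1.F2 rose in shr-5, near the share of all loci called higher (4.35%). It was the beta-fructofuranosidase gene FRUCT5 (0.78, limma adjusted p = 0.00669). In the same comparison, where 4.35% of all loci were called higher, 3 of 20 neighbours of PRA1.F3 rose: AT3G13672 (1.61, limma adjusted p = 0.00315), ATBFRUCT1, an invertase gene (1.24, limma adjusted p = 0.0144), and TMN7 (0.28, limma adjusted p = 0.0280). In shr-5 against scr-3, where 1.34% of all loci were called, AT1G55170 near PRA1.F2 fell by 0.39 (limma adjusted p = 0.0360) and ATBFRUCT1 rose by 1.55 (limma adjusted p = 0.0193).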

How the data were processed

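The authors deposited 1 table of log2 values made with RMA, per the submitters' processing notes, with 1 value for each of 20777 loci on 9 arrays. RMA corrects background, normalises quantiles and summarises probes, and it compresses differences of dim probes. No source used here gives its version, the probe mapping or the genome build, so no coordinates are printed. That the scale is log2 was read from the range of 2.90 to 14.03. No 2 arrays were identical. The number of arrays limits the precision, and p-values measure the spread between the biological repeats the labels name.

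Groups came from the sample titles. One limma 3.58.1 model (R 4.3.3) with a mean per genotype was fitted to all loci and arrays; two-sided p-values were adjusted over all loci of a comparison (Benjamini-Hochberg), with a threshold of 0.05. Fold changes, SEs and 95% intervals are from this fit. The fit was tested on simulated data. Equal repeat numbers were checked: deviations from group means correlated at 0.277, 0.138 and 0.107 between scr-3 and WT, where all 3 pairs pass 0.1 and the numbers are taken as pairs from the data only. They did so in 1 of 3 pairs in shr-5 against WT and in 2 of 3 in shr-5 against scr-3. Unequal repeat numbers were not compared and the labels name no pairs, so the pairing is not established. The main fit leaves this pairing out, and the fit with the number as a block is an alternative. For PRA1.F1 in scr-3 against WT the block gave an SE of 0.12, in place of 0.15. Other alternatives were a common median, no dim loci (lower 40%), only the 2 groups compared, array weights, an intensity trend and leaving out each array.

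The members and the lists (19 PRA1 genes, 57 RAB GTPases, 13 RAB cycle genes, leaf and root markers) were chosen with earlier results of these data known. Named by rule were all members, list genes past the threshold and the extremes of the PRA1 list. So were the 5 loci at each end of the likeness ranking and neighbours past the threshold. SHR, SCR and RCA were named as checks. Named outside this rule were the remaining measured PRA1 genes (with signals for PRA1.B6 only), NOF1, PEPC1, AT3G13700 and the other NF-YA genes. Loci were named through a reference table of TAIR10.1, used for names and gene order only, which matched 20508 loci. A RAB gene not named as such there (1) was left out, and 1 was not in the value table.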

Additional observations from a re-analysis of the deposited data

How the results depend on the processing

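The difference of PRA1.F1 from WT stayed between -2.21 and -1.96 in scr-3 and between -2.68 and -2.47 in shr-5 when 1 array was left out; it is too dim for the fit without the lower 40% of loci, which gives it no value. The differences of PRA1.F2 and PRA1.F3 passed the threshold in none of the 15 alternatives of any comparison, with the repeat number as a block among them (PRA1.F2 0.01 and PRA1.F3 -0.11 in scr-3 against WT). Their signs were not all stable. PRA1.F2 was -0.0093 in scr-3 and -0.0532 in shr-5 against WT with a common median, and -0.0070 and -0.0165 with array weights. Without 1 array it ran from -0.0287 to 0.0578 in scr-3, from -0.0406 to 0.0702 in shr-5 and from -0.0503 to 0.0605 in shr-5 against scr-3. PRA1.F3 in shr-5 against WT was -0.0038 with array weights and ran from -0.0139 to 0.14 without 1 array. No other PRA1 gene was called in any alternative.

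The counts over all loci moved most. With only the 2 groups compared they were 577 in scr-3 against WT, 807 in shr-5 against WT and 24 in shr-5 against scr-3, and with array weights 491, 2657 and 594. Without 1 array they ran from 17 to 595, from 654 to 2643 and from 33 to 610. In scr-3 against WT the count was 35, 23 and 22 without WT replicate 1, 2 and 3, 34, 33 and 17 without scr-3 replicate 1, 2 and 3, and 595 without shr-5 replicate 3. In shr-5 against WT it was 859, 654 and 750 without WT replicate 1, 2 and 3, 1029 without shr-5 replicate 2 and 2643 without shr-5 replicate 3. In shr-5 against scr-3 it was 177 and 154 without WT replicate 1 and 3, 39, 33 and 56 without scr-3 replicate 1, 2 and 3, and 421, 124 and 610 without shr-5 replicate 1, 2 and 3. The cause was not tested. With the repeat number as a block the counts were 52, 1720 and 236. A common median moved the share of higher calls to 34.9% in place of 53.5% in shr-5 against WT and to 37.2% in place of 57.0% in shr-5 against scr-3. In scr-3 against WT 1 RAB gene was called with only the 2 groups compared or without shr-5 replicate 3, and in shr-5 against scr-3 1 without shr-5 replicate 1. The RAB calls in shr-5 against WT numbered 0 with the block, 1 with a common median or only the 2 groups compared, and 4 with array weights or without shr-5 replicate 3.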
